A study of Mus musculus with 12 samples.

Results

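Tbx21, Eomes, Stat4, Ifng, Gata3, Stat6 and Rora are the lineage factors of helper T cells examined here. They were chosen by name and not by a cutoff on measured values, though earlier results of these data were known. Their Ensembl identifiers were matched to symbols. They are 7 of the 45669 genes or joined genes of the deposited table, and 6 of them have a row of their own. The table gives read counts of lymph node CD4+ T cells from C57BL6 mice that were 12 weeks old. Both copies of Rasgrp1 carried the Anaef point mutation in Anaef mice and were wild type in WT mice. Rasgrp1 encodes an exchange factor that activates Ras downstream of the T cell receptor, and the mutation is carried in every cell of the animal. Other cells were depleted with beads, and the labels name no stimulation in culture. Total RNA was measured in 4 Anaef and 4 WT libraries. Ribosome-protected fragments (RPF), the pieces of mRNA shielded by ribosomes, were measured in 2 Anaef and 2 WT pools, each made from 2 samples after 1 min of cycloheximide.

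Naive CD4+ T cells become effector cells of several kinds, and each kind depends on its own transcription factors. T-bet (encoded by Tbx21) and its relative eomesodermin (Eomes) drive the Th1 program together with STAT4, which carries the interleukin-12 signal, and interferon gamma (Ifng) is the cytokine of that program. GATA3 and STAT6, which carries the interleukin-4 signal, direct Th2 cells, and GATA3 is also needed for CD4+ T cell development and upkeep. RORα (Rora) promotes the Th17 program. In these bulk samples, fewer cells of a type and less RNA per cell cannot be told apart.

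None of the lineage factors tested passed the test between Anaef and WT cells, in total RNA or in RPF. Gata3 and Stat6, the Th2 pair, averaged 1.42-fold and 1.27-fold higher in Anaef total RNA, with unadjusted p-values under 0.05, while their RPF groups overlapped. Tbx21, Eomes and Rora averaged lower in Anaef total RNA, with intervals that reach well above and below 0 on the log2 scale. Between the assays the differences were larger. Tbx21 had 11.3-fold more RPF than total RNA in Anaef and 6.32-fold more in WT, and Gata3 2.56-fold more in Anaef and 4.03-fold more in WT. Rora had 0.132 times as much RPF as total RNA in Anaef and 0.101 times as much in WT.

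Depth was 18580747 to 39467754 counts per library in Anaef total RNA and 15326842 to 40046317 in WT total RNA. In RPF it was 2868943 to 3464868 counts in Anaef pools and 4044330 to 7009342 in WT pools. Values are CPM, each count divided by its library's size, with sizes scaled by edgeR's TMM method within each assay unless said otherwise, and each error is an SD over libraries. All 12 genes of the CD4 T cell list were tested in both assays, and Cd4 averaged 1458 CPM in Anaef and 1146 CPM in WT total RNA. In total RNA, 10 of the 12 were higher and 2 lower in Anaef, with a median log2 fold change of 0.25, and in RPF 7 were higher and 5 lower, with a median of 0.07. Of the markers of other cells, the summed level of 10 B cell genes was 16.5 to 44.3 CPM in Anaef and 41.4 to 80.1 CPM in WT total RNA. The sum of 8 plasma cell genes was 408 to 806 CPM in Anaef and 1322 to 6119 CPM in WT total RNA. Anaef replicate 6 and WT replicate 3 stood apart from the other total RNA libraries in an earlier description of these data, and 25.0% and 27.8% of their counts came from mitochondrial genes, with 16.4% to 23.7% in the others. Rasgrp1 itself averaged 582 ± 92.9 CPM in Anaef and 503 ± 72.1 CPM in WT total RNA (SD, n = 4 each), and a point mutation leaves its transcript count no check of the labels. In RPF, Rasgrp1 had 104 to 124 CPM in Anaef pools and 150 to 173 CPM in WT pools (log2 fold change -0.50, adjusted p = 0.363, edgeR). Of all genes tested in RPF, 22.5% likewise had both Anaef pools below both WT pools. Which animals each pool holds cannot be read from the labels, and p-values therefore measure only how far these samples spread.

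Before the values, the start-site windows of the Th2 pair are given, because Gata3 and Stat6 averaged higher in the same assay and genotype. Each runs from 250 bases before to 50 bases after the RefSeq start site on GRCm38.p6, written 5′ to 3′ on the gene's strand, and capitals mark the only match to 4 of the 5 searched motifs.
Gata3 (chr2:9878551-9878850, - strand): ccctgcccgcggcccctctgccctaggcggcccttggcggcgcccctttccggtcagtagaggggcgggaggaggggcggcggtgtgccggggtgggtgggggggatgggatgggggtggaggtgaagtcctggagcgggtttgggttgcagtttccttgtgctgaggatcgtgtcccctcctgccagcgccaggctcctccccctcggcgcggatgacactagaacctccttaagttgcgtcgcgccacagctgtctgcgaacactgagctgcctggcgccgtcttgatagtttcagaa
Stat6 (chr10:127642736-127643035, + strand): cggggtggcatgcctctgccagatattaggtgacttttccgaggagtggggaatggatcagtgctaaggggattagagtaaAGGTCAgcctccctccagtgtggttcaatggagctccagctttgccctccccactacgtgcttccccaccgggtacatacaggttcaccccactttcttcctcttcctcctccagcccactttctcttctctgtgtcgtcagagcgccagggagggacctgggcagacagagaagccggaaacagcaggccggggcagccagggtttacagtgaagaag
These 4 motifs were the GATA core AGATAA, the T-box half-site GGTGTGA, the STAT element TTCNNNGAA and the ROR element AGGTCA, each searched on both strands. They occur in 11.2%, 3.98%, 8.30% and 16.3% of the 32851 windows of the same length. The Gata3 window held none of them, and 67.3% of its bases were G or C. It lies inside the span that GENCODE gives the gene, not at that span's edge. The Stat6 window held 1 ROR element, whose first base lies at -169 from the start site, and 57.3% of its bases were G or C. Over all windows the median share of G or C was 52.7%. These matches describe letters only, and binding was not measured. Of the other lineage factors, the Tbx21, Rora and Eomes windows held none of these 4 motifs, and the Ifng window held a STAT element and a ROR element. Stat4 has 2 RefSeq start windows, and 1 of them held a ROR element. The fifth motif searched, the ETS core GGAAG on both strands, occurs in 71.4% of all windows and is not in capitals. It had 3 matches in the Stat6 window, 1 each in the Tbx21 and Ifng windows, 1 and 2 in the Stat4 windows, and 0 in the Gata3, Rora and Eomes windows.

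Per kilobase of merged exons, the signal transducer Stat6 had the highest total RNA level of the 6 genes with a row of their own, at 34.7 to 44.2 CPM per kilobase in Anaef and 26.6 to 34.4 in WT libraries. Gata3 came next, at 4.30 to 5.90 CPM per kilobase in Anaef and 3.26 to 4.35 in WT libraries. Rora followed at 0.554 to 0.935 in Anaef and 0.502 to 1.48 in WT libraries. Stat6, Gata3 and Rora thus stood in this order with no overlap between neighbours in either genotype. Eomes, at 0.348 to 1.61 CPM per kilobase in Anaef and 0.438 to 0.983 in WT libraries, overlapped Rora. Ifng reached 0.0532 to 0.814 CPM per kilobase in Anaef and 0 to 0.557 in WT libraries. Tbx21 reached 0.0368 to 0.252 CPM per kilobase in Anaef and 0 to 0.514 in WT libraries. Ifng and Tbx21 overlapped each other in both genotypes, so their order at the bottom is not resolved.

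**Figure D1:**
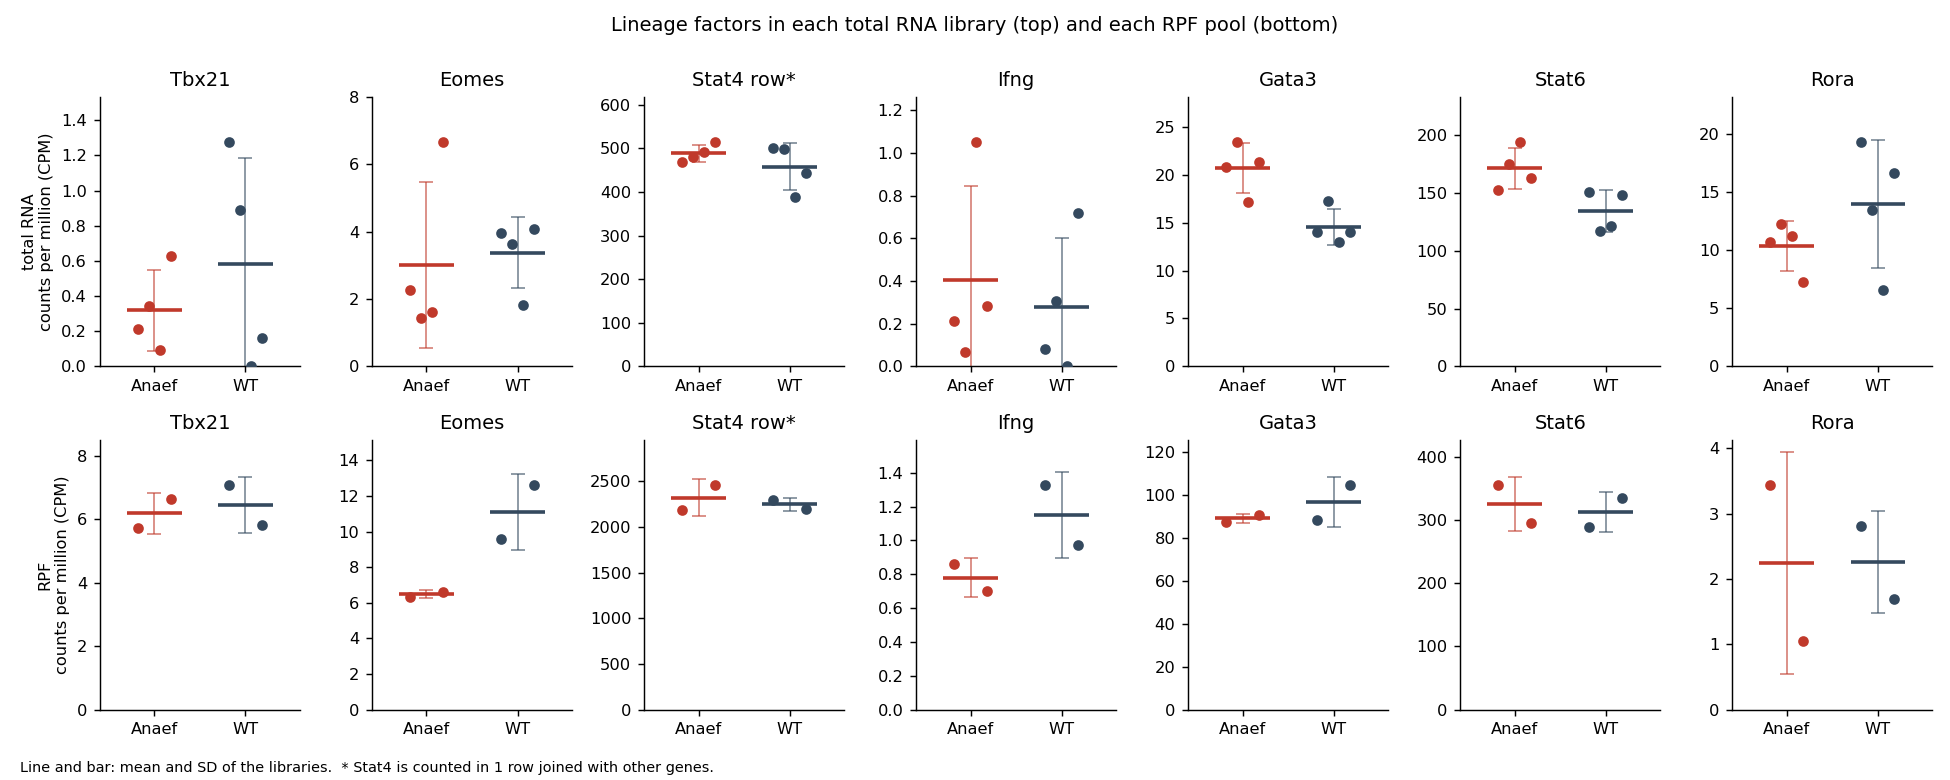
CPM of each lineage factor (y axis, from 0, own scale per panel) in each total RNA library (top row) and RPF pool (bottom row), with Anaef in red and WT in dark blue. Points are libraries, and lines and bars are the mean and SD. Stat6 total RNA is the panel where every Anaef library lies above every WT library, and Eomes total RNA has 1 Anaef library at 6.67 CPM above the rest.

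The genotype test was edgeR's quasi-likelihood test with Benjamini-Hochberg adjustment over all genes tested. In total RNA, 6 of the 7 lineage factors, with Stat4 through a joined row, passed the filter on low counts and 0 passed the threshold of 0.05, against 0.0224% of the 17876 genes tested. At an unadjusted p under 0.05, 2 of the 6 were higher in Anaef, against 2.73% of all genes higher. DESeq2 and limma-voom called 0 of the 6 as well, and over all genes they called 120 and 2. In RPF, 6 of the 7 were tested and 0 passed, against 0.0% of 9710 genes. At an unadjusted p under 0.05 there were 0 among the 6, against 11.9% of all genes, while over all genes DESeq2 called 197 and limma-voom 0. The test of whether the RPF difference departs from the total RNA difference (the interaction over all 12 libraries) called 0.0% of 19031 genes, with 636 at an unadjusted p under 0.05, 10 by DESeq2 and 0 by limma-voom. Of the lineage factors, limma-voom called 0 of the 6 tested in RPF and 0 of the 7 in the interaction. DESeq2 called 0 of the 4 to which it gave an adjusted p in RPF (the joined Stat4 row, Stat6, Gata3 and Eomes) and 0 of the 3 in the interaction (the joined Stat4 row, Stat6 and Gata3).

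Stat4 could not be measured by itself. Its gene, ENSMUSG00000062939 at chr1:51987148-52107189 on the + strand of GRCm38, shares 1 row of the table with other genes. The joined row had 469, 480, 491 and 516 CPM in Anaef replicates 5 to 8, against 501, 500, 388 and 444 CPM in WT replicates 1 to 4. All Anaef libraries lay inside or just above the WT range. In RPF the row had 2181 and 2462 CPM in Anaef pools 3B and 4B, against 2298 and 2196 CPM in WT pools 1B and 2B. The groups overlapped in both assays. The log2 fold change was 0.09 with a 95% interval of -0.19 to 0.38 in total RNA and 0.05 with an interval of -0.29 to 0.38 in RPF. Those intervals apply to the sum of the joined genes, and no value of Stat4 alone can be drawn from them.

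Tbx21 (ENSMUSG00000001444, chr11:97098071-97115331, - strand) encodes T-bet and was near the detection limit in total RNA. It had 4, 10, 4 and 22 counts in Anaef replicates 5 to 8, which are 0.211, 0.344, 0.0917 and 0.627 CPM. The WT replicates 1 to 4 had 48, 41, 0 and 4 counts, which are 1.28, 0.892, 0 and 0.160 CPM. The WT libraries were split, with 2 above every Anaef library and 2 near or at 0, and the groups overlapped. A count of 0 in WT replicate 3 allows up to 0.237 CPM at a floor of 3 counts, within counting error only. The log2 fold change was -0.91 with a 95% interval of -3.13 to 1.30 (adjusted p = 0.979, edgeR). With single libraries left out it ranged between -1.48 without Anaef replicate 8 and -0.23 without WT replicate 1, and it was -0.59 without Anaef replicate 7. In RPF the gene was steadier, with 5.73 and 6.63 CPM in Anaef pools against 7.09 and 5.83 CPM in WT pools. The RPF groups overlapped, with a log2 fold change of -0.08 and an interval of -0.91 to 0.75 (adjusted p = 0.955).

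Eomes (ENSMUSG00000032446, chr9:118478212-118486132, + strand) encodes eomesodermin, a T-box factor of memory and cytotoxic lymphocytes. Its total RNA was 2.27, 1.45, 1.63 and 6.67 CPM in Anaef replicates 5 to 8, against 3.97, 3.64, 1.82 and 4.09 CPM in WT replicates 1 to 4. Replicate 8 was the highest of all 8 libraries, and the other Anaef libraries lay in the lower part of the WT range or below it. The log2 fold change was -0.17 with a 95% interval of -1.37 to 1.03 (adjusted p = 0.989). It was -0.93 without Anaef replicate 8 (adjusted p = 0.809), 0.06 without Anaef replicate 6 and 0.03 without Anaef replicate 7, and adjusted p over all alternatives was 0.809 to 1.0.

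In RPF, Eomes had 6.31 and 6.63 CPM in Anaef pools, against 9.60 and 12.6 CPM in WT pools. Both Anaef pools lay below both WT pools. The log2 fold change was -0.77 with a 95% interval of -1.54 to 0.01, which misses the threshold (unadjusted p = 0.0515, adjusted p = 0.427). Of all genes tested in RPF, 22.5% had both Anaef pools below both WT pools, so this order alone is common. These values rest on 22 and 19 counts in Anaef pools and 65 and 52 in WT pools. Natural killer and CD8 T cells also express Eomes. In total RNA, the summed level of 10 natural killer cell markers was 8.87, 23.3, 16.0 and 8.98 CPM in Anaef replicates 5 to 8 and 13.5 to 21.1 CPM in WT libraries, so replicate 8 was not high. In RPF the same sum was 103 and 74.0 CPM in Anaef pools and 103 and 120 CPM in WT pools. Most of that RPF sum was Prf1 alone, which averaged 65.5 CPM in Anaef and 84.4 CPM in WT pools. Of those 10 genes, 7 were tested in total RNA, with 2 higher and 5 lower, and in RPF 4 were tested, with 1 higher and 3 lower. The most abundant were Klrd1, at 3.63 CPM in Anaef and 5.54 CPM in WT total RNA, and Prf1, at 4.32 CPM in Anaef and 3.66 CPM in WT total RNA, while Klra8 was at 0 counts in every total RNA library. The sum of 3 CD8 T cell markers was 14.2, 16.8, 17.3 and 22.5 CPM in Anaef replicates 5 to 8 and 14.5 to 21.2 CPM in WT total RNA. In RPF that sum was 103 and 88.6 CPM in Anaef pools and 98.5 and 142 CPM in WT pools. Most of that RPF sum was Ctsw, which averaged 78.0 CPM in Anaef and 101 CPM in WT pools. Cd8b1 averaged 16.1 CPM in Anaef and 17.4 CPM in WT pools, and Cd8a 1.59 and 2.08 CPM. In total RNA, Cd8b1 was the most abundant of the 3, at 10.4 ± 4.71 CPM in Anaef and 9.35 ± 2.14 CPM in WT. There 1 of the 3 markers averaged higher and 2 lower in Anaef. The part of these cells in the Eomes values was not tested.

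Ifng (ENSMUSG00000055170, chr10:118441046-118445892, + strand), the Th1 cytokine, did not pass the filter on low counts within either assay. It had 4, 2, 46 and 10 counts in Anaef replicates 5 to 8, against 3, 14, 0 and 18 counts in WT replicates 1 to 4. A single Anaef library, replicate 7, held 46 of the 62 Anaef counts, and the groups overlapped. Pooled over libraries, the level was 0.489 CPM in Anaef (Poisson interval 0.375 to 0.627) and 0.289 CPM in WT (0.201 to 0.402), with intervals that cover counting error only. In RPF there were 3 and 2 counts in Anaef pools and 9 and 4 counts in WT pools, which are 0.860 and 0.698 CPM in Anaef against 1.33 and 0.971 CPM in WT. Both Anaef pools lay below both WT pools, an order found for 22.5% of all genes tested. Ifng did not pass the filter on low counts, and its genotype difference was not tested within either assay.

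Stat6 (ENSMUSG00000002147, chr10:127642986-127660957, + strand) carries the interleukin-4 signal to the nucleus. Its total RNA was 153, 175, 195 and 163 CPM in Anaef replicates 5 to 8, against 151, 117, 121 and 148 CPM in WT replicates 1 to 4. Every Anaef library lay above every WT library, by a narrow margin between Anaef replicate 5 and WT replicate 1. Such a separation was found for 1.58% of all genes tested. The means were 172 ± 18.0 CPM in Anaef and 135 ± 17.8 CPM in WT (SD, n = 4 each), a log2 fold change of 0.35 with a 95% interval of 0.03 to 0.67 (unadjusted p = 0.0351, adjusted p = 0.865, edgeR). In RPF, Stat6 had 356 and 296 CPM in Anaef pools, against 290 and 335 CPM in WT pools. The RPF groups overlapped, with a log2 fold change of 0.06 and an interval of -0.31 to 0.43 (adjusted p = 0.913). Exons of Stat6 overlap those of Nab2 on the opposite strand, and the strand setting of the counting was not given in the sources used here. Nab2, a repressor of early growth response factors, had 57.0 ± 24.5 CPM in Anaef and 92.6 ± 10.1 CPM in WT total RNA (SD, n = 4 each) (log2 fold change -0.70, adjusted p = 0.840).

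Gata3 (ENSMUSG00000015619, chr2:9857078-9890034, - strand) is the master factor of Th2 cells. Its total RNA was 20.9, 23.5, 17.1 and 21.4 CPM in Anaef replicates 5 to 8, against 14.0, 17.3, 13.0 and 14.0 CPM in WT replicates 1 to 4. The groups overlapped through a single pair, since Anaef replicate 7 lay just below WT replicate 2. The means were 20.7 ± 2.65 CPM in Anaef and 14.6 ± 1.89 CPM in WT (SD, n = 4 each), a log2 fold change of 0.51 with a 95% interval of 0.06 to 0.95 (unadjusted p = 0.0291, adjusted p = 0.840, edgeR). Without Anaef replicate 6 and WT replicate 3 together it was 0.40, and Stat6 was then at 0.30. In RPF, Gata3 had 87.7 and 90.7 CPM in Anaef pools, against 88.4 and 105 CPM in WT pools. Both Anaef pools lay near the lower WT pool and the groups overlapped, and the log2 fold change was -0.11 with an interval of -0.50 to 0.27 (adjusted p = 0.824). The antisense gene Gm13256 overlaps Gata3 exons and had 238 counts over the 8 total RNA libraries, where Gata3 had 2573 in Anaef and 1833 in WT.

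The RPF and total RNA differences of Gata3 pointed in opposite directions, so the difference between them was examined. The interaction was -0.63 with a 95% interval of -1.26 to -0.01 (unadjusted p = 0.0478, adjusted p = 1.0, edgeR). Of all genes, 1.76% had a negative interaction at an unadjusted p under 0.05, and Gata3 was the only one of the 7 lineage factors with an unadjusted p under 0.05 in either direction. For Stat6 the interaction was -0.30 with an interval of -0.81 to 0.21. Regulatory T cells and group 2 innate lymphoid cells also express Gata3. The summed level of 5 regulatory T cell markers was 88.8 to 141 CPM in Anaef and 83.3 to 111 CPM in WT total RNA, with 5 of 5 averaging higher. In RPF that sum was 153 and 176 CPM in Anaef pools and 108 and 112 CPM in WT pools, with both Anaef pools above both WT pools. All 4 of these markers tested in RPF were higher in Anaef and 0 were called. At an unadjusted p under 0.05 there were 3 of them, Ikzf2, Ctla4 and Tnfrsf18, against 11.9% of all genes. Foxp3 was not among these, at 13.3 CPM in Anaef and 11.3 CPM in WT pools on average (log2 fold change 0.25). The sum of 7 markers of group 2 innate lymphoid cells was 457 to 551 CPM in Anaef and 479 to 588 CPM in WT total RNA. In RPF it was 530 and 507 CPM in Anaef pools and 744 and 620 CPM in WT pools, with both Anaef pools below both WT pools. Most of that RPF sum was Il7r, which averaged 414 CPM in Anaef and 599 CPM in WT pools. Regulatory T cells are themselves CD4+ T cells, and the second list holds Il7r and Icos, which CD4+ T cells also express. The part of either cell type in the Gata3 values was not tested. The CD4 T cell list itself summed to 4035 to 5665 CPM in Anaef and 3811 to 4157 CPM in WT total RNA, and its part in the Gata3 and Stat6 values was not tested. Cd3e and Cd28, with log2 fold changes of 0.40 and 0.44, were the 2 genes of that list at an unadjusted p under 0.05, and 0 of the 12 were called.

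**Figure D2:**
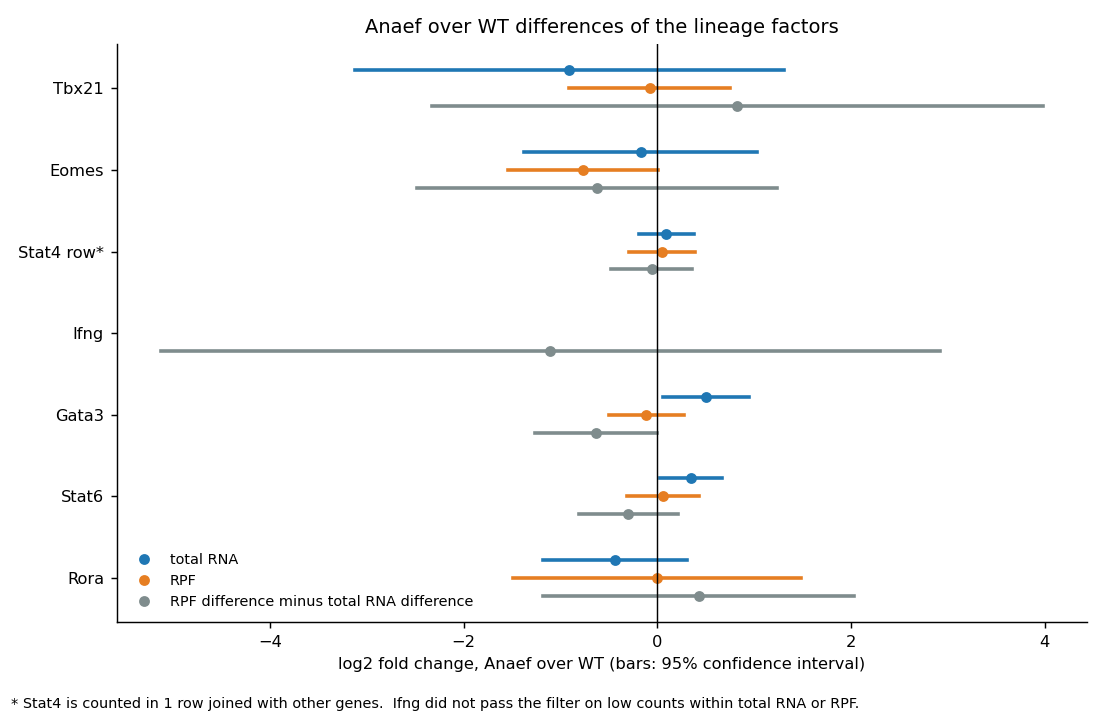
Log2 fold change of Anaef over WT (x axis) for each lineage factor, with 95% confidence intervals as bars, in total RNA (blue), in RPF (orange) and for the RPF difference minus the total RNA difference (grey). Only the total RNA intervals of Gata3 (0.06 to 0.95) and Stat6 (0.03 to 0.67) and the interaction interval of Gata3 (-1.26 to -0.01) leave out 0, and none of them passed the adjusted threshold.

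Rora (ENSMUSG00000032238, chr9:68653786-69388246, + strand) encodes RORα, a nuclear receptor of Th17 and innate lymphoid cells. Its total RNA was 10.7, 12.2, 11.3 and 7.24 CPM in Anaef replicates 5 to 8, against 19.3, 13.4, 6.57 and 16.6 CPM in WT replicates 1 to 4. The WT libraries spread over the whole Anaef range, with WT replicate 3 the lowest of all and the other WT libraries above every Anaef library. The log2 fold change was -0.44 with a 95% interval of -1.19 to 0.31 (adjusted p = 0.945, edgeR). It was -0.24 without WT replicate 1, -0.67 without WT replicate 3 and -0.76 without both Anaef replicate 6 and WT replicate 3. In RPF, Rora had 12 and 3 counts in Anaef pools against 19 and 7 in WT pools, which are 3.44 and 1.05 CPM against 2.81 and 1.70 CPM. Both Anaef pools lay outside the WT range, 1 above it and 1 below, and the log2 fold change was 0.00 with an interval of -1.49 to 1.48.

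The balance between lineage factors is a ratio within a library, which library size does not touch. Per exon length, Gata3 over Rora was 6.43, 6.31, 5.00 and 9.69 in Anaef replicates 5 to 8, against 2.38, 4.23, 6.49 and 2.76 in WT replicates 1 to 4. All Anaef libraries lay above all WT libraries but WT replicate 3. Gata3 over Eomes was 9.59, 17.0, 11.0 and 3.34 in Anaef libraries and 3.68, 4.97, 7.45 and 3.57 in WT libraries, where the low Anaef value is replicate 8. Stat6 over Gata3 was 6.62, 6.75, 10.3 and 6.90 in Anaef libraries and 9.78, 6.12, 8.45 and 9.59 in WT libraries, with full overlap. These ratios were chosen after the values were known and are given as a description.

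The RPF and total RNA libraries were compared within each genotype. A CPM in one assay is a share of that library, so a ratio of RPF to total RNA is relative to the other genes, whose median log2 ratio was -0.48 in Anaef and -0.36 in WT over the protein-coding genes tested. In Anaef, 4 of the 7 lineage factors passed the test (edgeR, adjusted p at most 0.05), 3 with more RPF and 1 with less. Of all 18032 genes tested there, 16.4% had significantly more and 50.8% significantly less RPF. In WT, 6 of the 7 passed, 5 with more RPF and 1 with less, where 19.6% of 17775 genes had more and 54.4% less.

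Tbx21 had the highest ratio, with a log2 value of 3.50 in Anaef (adjusted p = 0.00525) and 2.66 in WT (adjusted p = 0.0432), above 96.9% of protein-coding genes in Anaef and 94.4% in WT. Its counts in the shallow RPF pools were of the size of those in the deeper total RNA libraries. Gata3 had log2 ratios of 1.36 in Anaef (adjusted p = 0.000937) and 2.01 in WT (adjusted p = 5.09e-05), above 81.3% of protein-coding genes in Anaef and 89.2% in WT. The joined Stat4 row had 1.50 in Anaef (adjusted p = 6.34e-05) and 1.58 in WT (adjusted p = 4.97e-05). These genes had more RPF than total RNA in both genotypes.

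Stat6 and Eomes passed in WT and not in Anaef, but their interaction tests did not pass, so the genotypes were not shown to differ. The log2 ratio of Stat6 was 0.18 in Anaef with an interval of -0.24 to 0.59 and 0.50 in WT with an interval of 0.11 to 0.89 (adjusted p = 0.0276). That of Eomes was 0.35 in Anaef with an interval of -1.28 to 1.99 and 0.99 in WT with an interval of 0.09 to 1.88 (adjusted p = 0.0469). In WT, the calls of Tbx21, Stat6 and Eomes are close to the threshold. They were lost without either RPF pool, with adjusted p of 0.178 and 0.120 for Tbx21, 0.0556 and 0.177 for Stat6 and 0.0930 and 0.232 for Eomes without pool 1B and without pool 2B. Each was also lost without WT total RNA replicate 2, Tbx21 and Eomes without replicate 4, and Eomes without replicate 1. Ifng passed in neither genotype, with log2 ratios of 0.17 in Anaef (interval -2.61 to 2.95) and 1.30 in WT (interval -1.37 to 3.97).

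Rora stood at the other end. Its log2 ratio was -2.92 in Anaef (adjusted p = 0.00245) and -3.31 in WT (adjusted p = 0.000876), above 19.9% of protein-coding genes in Anaef and 16.9% in WT. Its merged exons are 13071 bases long and its merged coding sequence 1671, a ratio of 7.82, against 1.56 for Tbx21 and 2.99 for Gata3. RPF come from coding sequence, and total RNA reads come from whole exons. With RPF divided by coding length and total RNA by exon length, the log2 ratio of Rora was 0.02 in Anaef and -0.40 in WT, where protein-coding genes had medians of 1.33 in Anaef and 1.38 in WT. It was then above 26.0% of protein-coding genes in Anaef and 20.0% in WT.

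On that scale Tbx21 had log2 ratios of 4.17 in Anaef and 3.39 in WT, and Gata3 2.94 in Anaef and 3.58 in WT, above 79.7% to 92.4% of protein-coding genes. Stat6 lay near the median, at 0.99 in Anaef and 1.29 in WT. Eomes was at 1.32 in Anaef and 1.96 in WT, and Ifng at 1.68 in Anaef and 2.81 in WT. Per coding kilobase, RPF levels ordered the genes differently from total RNA. Stat6 led with 118 to 142 CPM per coding kilobase in Anaef and 115 to 133 in WT pools, and Gata3 followed with 66.0 to 68.3 in Anaef and 66.5 to 78.9 in WT pools. Tbx21, which was low in total RNA, had 3.61 to 4.17 in Anaef and 3.66 to 4.46 in WT pools, above Rora with 0.626 to 2.06 in Anaef and 1.02 to 1.68 in WT pools. Eomes had 2.97 to 3.12 in Anaef and 4.52 to 5.95 in WT pools, which is below Tbx21 in Anaef and above it in WT. In Anaef pools 3B and 4B, Eomes had 22 and 19 counts and Tbx21 20 and 19. Their order there thus comes from coding lengths of 2122 and 1590 bases. The RPF genotype difference of neither gene passed the test. The libraries of the assays were made with different kits, so their ratio also holds what the kits favour, which was not tested.

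**Figure D3:**
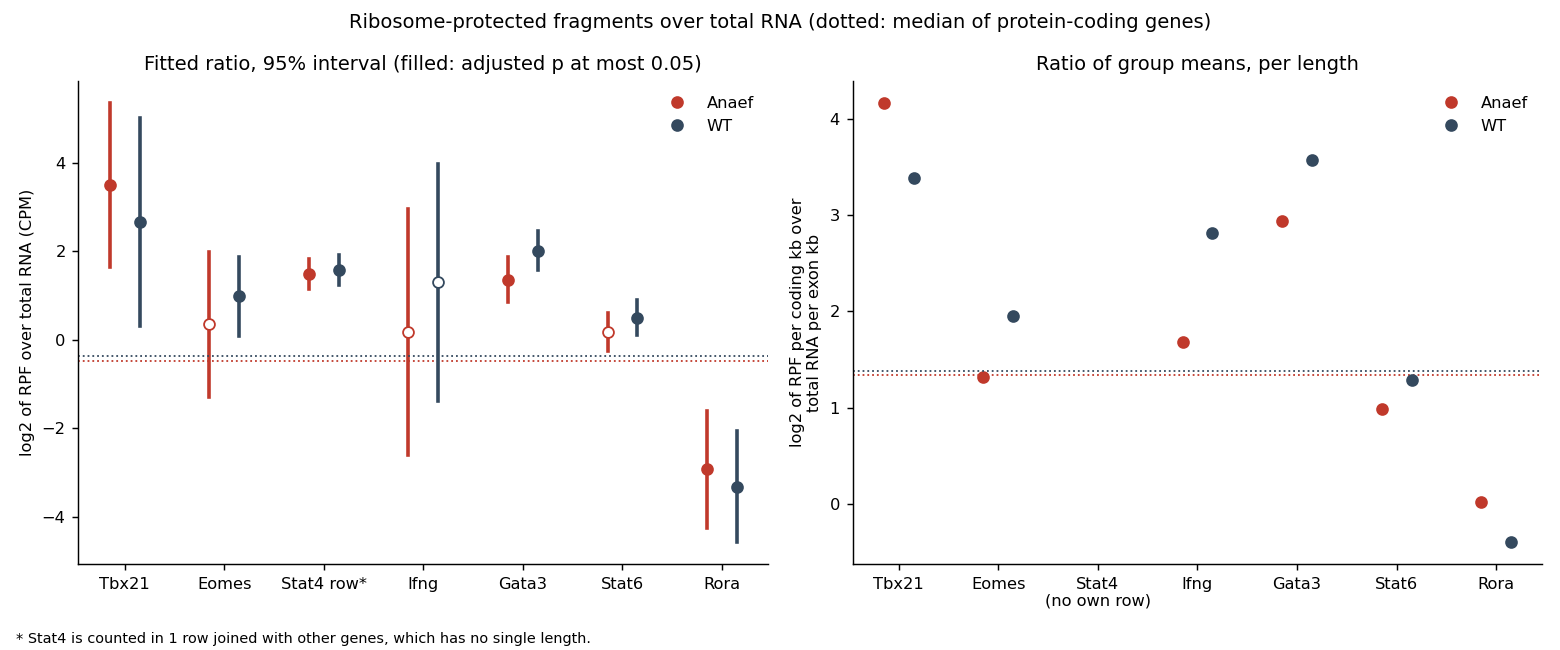
Log2 ratio of RPF over total RNA for each lineage factor in Anaef (red, left of each pair) and WT (dark blue). The left panel gives the fitted ratio of CPM with its 95% interval, filled where it passed the test, and the right panel the ratio of group means with RPF per coding kilobase and total RNA per exon kilobase. Dotted lines are medians of protein-coding genes, and Tbx21 and Gata3 lie above them and Rora below them in both panels.

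Other genes of the helper programs were followed through lists, of which only genes with a row of their own are counted. Of the Th1 list, 17 genes other than the lineage factors were tested in total RNA, with 7 higher and 10 lower in Anaef, a median log2 fold change of -0.08, 1 at an unadjusted p under 0.05 and 0 called, where the median of all genes was 0.01 and 5.62% of all genes were at an unadjusted p under 0.05. In RPF 15 were tested, with 8 higher and 7 lower, a median of 0.04, 2 at an unadjusted p under 0.05 and 0 called, where 11.9% of all genes were at such a p. In total RNA, DESeq2 and limma-voom called 0 genes of the Th1, Th2, Th17 and shared lists, and in RPF limma-voom called 0. The chemokine gene Ccl5 had the smallest p, at 0.560 ± 0.292 CPM in Anaef and 1.81 ± 1.01 CPM in WT total RNA (log2 fold change -1.67, adjusted p = 0.840). Both chains of the interleukin-12 receptor averaged higher in Anaef, Il12rb1 at 4.50 ± 2.21 CPM in Anaef and 2.11 ± 1.10 CPM in WT, and Il12rb2 at 5.77 ± 5.82 CPM in Anaef and 2.98 ± 0.424 CPM in WT. The interferon gamma receptor chain Ifngr1 had 36.8 ± 11.8 CPM in Anaef and 29.4 ± 6.23 CPM in WT, and the cytotoxic granule gene Nkg7 had 3.75 ± 1.34 CPM in Anaef and 2.53 ± 1.36 CPM in WT. Il18r1, a chain of the interleukin-18 receptor and the most abundant of the list with a row of its own, had 113 ± 37.4 CPM in Anaef and 103 ± 10.4 CPM in WT total RNA. In RPF, Il18r1 averaged 27.8 CPM in Anaef and 49.8 CPM in WT pools (log2 fold change -0.84, adjusted p = 0.344), and DESeq2 called it. Bhlhe40 was the other of the 2 at an unadjusted p under 0.05 in RPF, and it averaged higher in Anaef. Its RPF was 11.5 CPM in Anaef and 5.75 CPM in WT (log2 fold change 0.99, adjusted p = 0.344). Ccl3 and Ccl4 had 0 counts over all total RNA libraries.

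Of the Th2 list, 12 other genes were tested in total RNA, with 8 higher and 4 lower, a median of 0.20, 2 at an unadjusted p under 0.05 and 0 called. In RPF 8 were tested, with 6 higher and 2 lower, a median of 0.27 and 0 called. At an unadjusted p under 0.05 in RPF there were 3, all higher, against 11.9% of all genes. Maf, a factor that drives interleukin-4 and interleukin-10, had 41.5 ± 11.9 CPM in Anaef and 26.9 ± 7.55 CPM in WT total RNA (log2 fold change 0.62, adjusted p = 0.874), and averaged 48.9 CPM in Anaef and 30.2 CPM in WT RPF (log2 fold change 0.68, adjusted p = 0.344). The chemokine receptor Ccr4 had 24.1 ± 5.52 CPM in Anaef and 18.0 ± 5.14 CPM in WT total RNA, and averaged 33.2 CPM in Anaef and 18.0 CPM in WT RPF (log2 fold change 0.89, adjusted p = 0.344), and DESeq2 called it. Bhlhe41, a helix-loop-helix repressor, averaged lower in Anaef, at 0.216 ± 0.206 CPM in Anaef and 1.19 ± 1.21 CPM in WT total RNA. Gfi1, a repressor that aids Th2 growth, had 10.7 ± 5.15 CPM in Anaef and 4.82 ± 4.63 CPM in WT. The interleukin-4 receptor Il4ra, which activates Stat6, had 79.8 ± 12.9 CPM in Anaef and 72.7 ± 3.31 CPM in WT total RNA. Il2rg was counted in a joined row, at 956 ± 131 CPM in Anaef and 823 ± 76.8 CPM in WT. The cytokine genes Il4, Il5 and Il13 had 89, 15 and 29 counts over all 8 total RNA libraries. Maf and Ccr4 thus averaged higher in Anaef in both assays, and neither passed edgeR's test.

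Of the Th17 list, 15 other genes were tested in total RNA, with 11 higher and 4 lower, a median of 0.17, 2 at an unadjusted p under 0.05 and 0 called. In RPF 13 were tested, with 8 higher and 5 lower, a median of 0.14 and 0 called, where DESeq2 called Il6ra and Tgfbr2. At an unadjusted p under 0.05 in RPF there were 5, with 1 higher and 4 lower, against 11.9% of all genes. The higher gene was the chemokine receptor Ccr6, with an RPF log2 fold change of 1.51 (adjusted p = 0.344, edgeR). Il1r1, a receptor that promotes Th17 cells, had 6.79 ± 4.75 CPM in Anaef and 2.86 ± 1.12 CPM in WT, and the cytokine Il21 6.92 ± 4.33 CPM in Anaef and 3.62 ± 2.31 CPM in WT. Ahr, a ligand-activated factor, had 3.12 ± 2.26 CPM in Anaef and 1.85 ± 0.540 CPM in WT. The most abundant were Il6st, the shared receptor chain of the interleukin-6 family, at 521 ± 74.2 CPM in Anaef and 441 ± 99.3 CPM in WT, and Tgfbr2 at 209 ± 45.1 CPM in Anaef and 210 ± 9.68 CPM in WT. In RPF both averaged lower in Anaef, Il6st with a log2 fold change of -0.49 (adjusted p = 0.369) and Tgfbr2 with -0.55 (adjusted p = 0.344). None of these genes passed edgeR's test.

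Of 12 regulators shared by helper lineages, 10 were higher and 2 lower in Anaef total RNA, with a median of 0.17, while in RPF 3 were higher and 9 lower, with a median of -0.12, and 0 were called in either assay. At an unadjusted p under 0.05 there were 2 in total RNA, against 5.62% of all genes, and 5 in RPF, against 11.9%, and DESeq2 called Ets1, Lef1 and Tcf7 in RPF. Tcf7, a factor of naive and memory T cells that activates Gata3 in Th2 cells, had 1293 ± 127 CPM in Anaef and 973 ± 45.3 CPM in WT total RNA (log2 fold change 0.41, adjusted p = 0.690) and averaged 613 CPM in Anaef and 882 CPM in WT RPF (log2 fold change -0.53, adjusted p = 0.344). Lef1, its relative, had 444 ± 39.0 CPM in Anaef and 391 ± 62.1 CPM in WT total RNA and a log2 fold change of -0.53 in RPF (adjusted p = 0.344). Foxo1 had 589 ± 97.1 CPM in Anaef and 449 ± 29.3 CPM in WT total RNA. Runx1 had 101 ± 26.8 CPM in Anaef and 77.4 ± 9.96 CPM in WT total RNA. Bcl6, the factor of follicular helper cells, averaged higher in Anaef in both assays, at 47.1 ± 11.1 CPM in Anaef and 35.4 ± 6.38 CPM in WT total RNA, with an RPF log2 fold change of 0.54 (adjusted p = 0.344). Ikzf1 had 704 ± 50.9 CPM in Anaef and 689 ± 33.3 CPM in WT total RNA. In 2 of the 12, all Anaef total RNA libraries lay above all WT libraries, against 1.58% of all genes tested. The sum of 6 naive T cell markers, a list that holds Tcf7 and Lef1, was 4448 and 4320 CPM in Anaef RPF pools. In WT RPF pools it was 4921 and 5549 CPM, with both Anaef pools below both WT pools. Of all genes tested in RPF, 22.5% had that order. Of the 6 markers, 2 averaged higher and 4 lower in Anaef RPF, with Tcf7 and Lef1 among the lower. In total RNA the sum was 3025 to 3479 CPM in Anaef and 2783 to 3084 CPM in WT. The part of naive cells in these values was not tested.

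**Figure D4:**
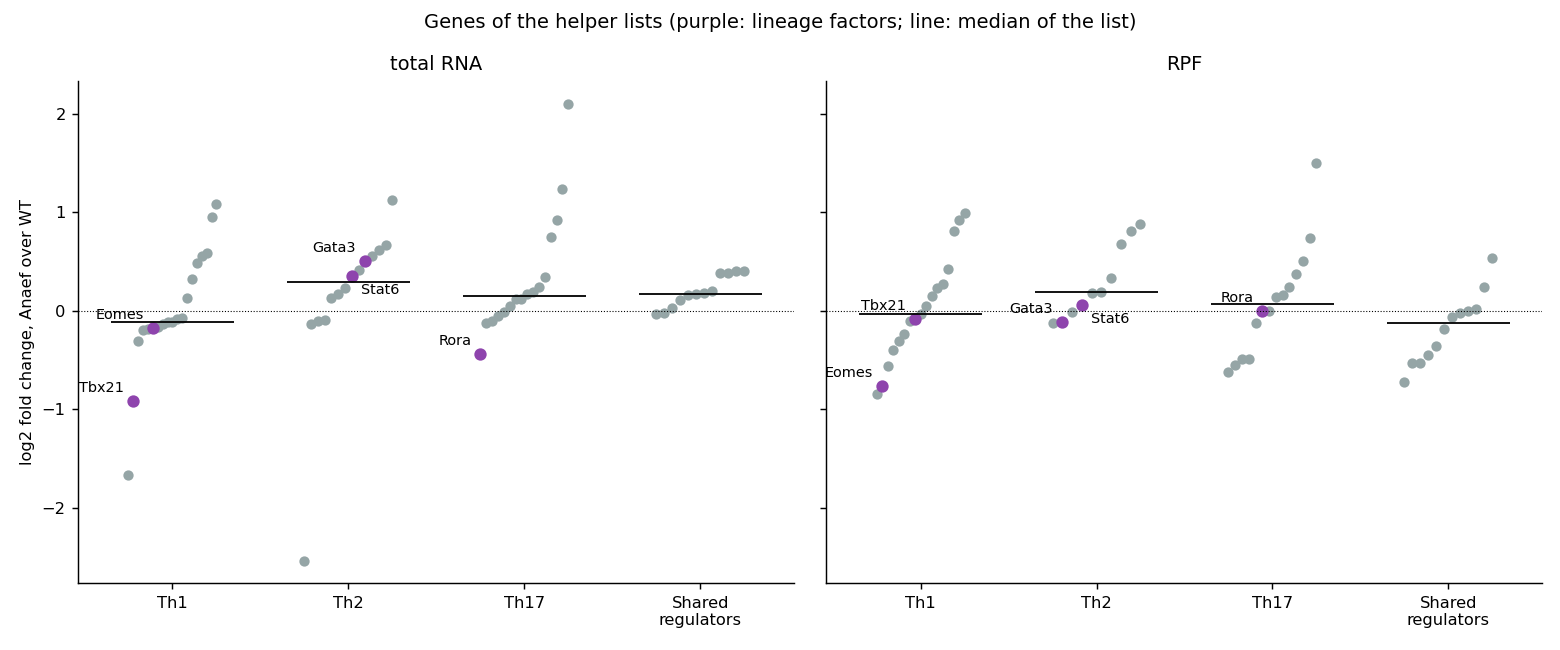
Log2 fold change of Anaef over WT (y axis) for the tested genes of each helper list with a row of their own, in total RNA (left) and RPF (right), with the lineage factors in purple and the list's median as a line. In total RNA Gata3 and Stat6 lie above 0 and Rora and Tbx21 below it, and the shared regulators lie mostly above 0 in total RNA and mostly below 0 in RPF.

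For each lineage factor tested in total RNA, the protein-coding genes of at least 10 CPM were ranked by how closely their standardised log2 CPM followed it over the 8 total RNA libraries. The measure is the mean absolute difference in SD units, and its median over 6482 or 6483 candidate genes was 1.01 to 1.09. Nearest to Gata3 were Tox (0.205), itself a factor of CD4+ T cell development, and Mtfmt (0.224). Nearest to Stat6 were Ccndbp1 (0.302) and Khdrbs1 (0.319), and Zmiz2 (0.219) was near to Rora. Tbx21 was nearest to Tmed2 (0.282) and Mfn1 (0.301), and Eomes to Letm1 (0.233) and Zfp97 (0.278). The joined Stat4 row was nearest to Hnrnpa1 (0.205) and Phf11b (0.228).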

How the data were processed

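Total RNA and RPF of lymph node CD4+ T cells were sequenced in 12 libraries, grouped by the labels' genotype and assay. The deposited values were assumed to be raw read counts per gene, with no normalization by the authors. The RPF columns are named as masked per the file headers. TopHat 1.4.1, Bowtie 0.2.17 and GRCm38 are named in the submitters' processing notes, and the counting tool, annotation, strand setting and mask were not given in the sources used here. Rows were matched to GENCODE annotation of GRCm38: 44509 rows matched 1 gene, 263 joined several identifiers and 897 had no match. Promoter windows came from RefSeq's GRCm38.p6.

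CPM used library sizes scaled by TMM. The main test was edgeR's glmQLFTest (edgeR 4.0.16, R 4.3.3) on genes kept by filterByExpr, and p-values were adjusted over all genes by Benjamini-Hochberg at 0.05. Total RNA was fitted on 8 libraries, RPF on 4, the interaction of genotype and assay on 12, and RPF over total RNA on the 6 libraries of each genotype. Standard errors and 95% intervals were derived from the F statistic and its degrees of freedom. Log2 CPM used a prior count of 2. Likeness ranked protein-coding genes of at least 10 CPM. Poisson intervals and floors of 3 counts cover only the error of counting, because PCR copies cannot be told from molecules here. The fits were tested on simulated data.

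Alternatives were DESeq2 1.42.0, voom in limma 3.58.1, RLE size factors, no filter, a filter on a mean of 50 counts, leaving out mitochondrial, immunoglobulin and T cell receptor genes, a fit on all 12 libraries, and leaving out each library, or Anaef replicate 6 and WT replicate 3 together. The members and gene lists were chosen with earlier results of these data known. The lineage factors and Rasgrp1 are always named. Of each helper list up to 5 other genes with the smallest p in total RNA and the 2 most abundant are named, and of lists of other cells the 2 most abundant in total RNA and any at 0 there, where a result turns on them. A few genes picked by it are left unreported. Ets1, Il6ra, Bhlhe40, Ccr6, Cd28, Ctla4, Tnfrsf18 and the cytokine genes Il4, Il5 and Il13 are named after their values were seen.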

Additional observations from a re-analysis of the deposited data

Results flagged for a closer look

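Within Anaef total RNA, Eomes was far higher in replicate 8, at 6.67 CPM, than in the other Anaef libraries, which had 1.45 to 2.27 CPM. The gap to the next library was 0.842 of the group's range, above Dixon's critical value at 95% for 4 samples. In all 14 groups of 4 libraries, 1 per gene and genotype, were examined, and chance flags about 1 in 20. In replicate 8 the summed natural killer cell markers were 8.98 CPM, near the lowest of the Anaef libraries, and the CD8 T cell markers 22.5 CPM, the highest of the Anaef libraries. The part of either cell type was not tested.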

How the results depend on the processing

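None of the lineage factors that a setting could test passed the threshold between Anaef and WT in total RNA, RPF or the interaction. Ifng was not tested within total RNA or RPF, DESeq2 gave no adjusted p for Tbx21 and Rora in RPF and for Ifng, Tbx21, Rora and Eomes in the interaction, and a minimum mean of 50 counts left out Tbx21 in total RNA, Tbx21, Rora and Eomes in RPF, and Tbx21 and Ifng in the interaction. The number of genes called in total RNA was 4, and it was 120 with DESeq2 (29 higher, 91 lower), 2 with limma-voom, 0 without mitochondrial, immunoglobulin and T cell receptor genes, 2 without Anaef replicate 6 and WT replicate 3, and 0 to 3 when single libraries were left out. In RPF it was 0, and it was 197 with DESeq2, 514 without a filter, 6 without those gene classes, and 0 to 211 when single pools were left out, where the lone pool of a genotype is assumed to vary like the other. In the interaction it was 0, with 10 in DESeq2 and 0 to 1 when single libraries were left out. RPF over total RNA in Anaef gave 12106 calls, 7909 with limma-voom.

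When single libraries were left out, the log2 fold change of Eomes in total RNA ranged over -0.93 to 0.0554. In RPF the ranges were -0.0498 to 0.13 for the joined Stat4 row, -0.0783 to 0.18 for Stat6, -0.20 to 0.0683 for Tbx21, -0.24 to 0.0106 for Gata3 and -1.13 to 0.56 for Rora. In the interaction they were -0.17 to 0.00840 for the Stat4 row, -0.72 to 0.98 for Rora and -0.87 to 0.15 for Eomes, and for Ifng in RPF over total RNA of Anaef -0.20 to 1.28. The cause was not tested. With no filter, Stat6 (adjusted p = 0.0516) and Eomes (adjusted p = 0.0670) lost their calls in RPF over total RNA of WT, as did Eomes with limma-voom (adjusted p = 0.0604). By coding length, Ifng ranked above Tbx21 in WT total RNA as well. No paired analysis was possible because the groups share no replicate numbers. RPF depth limits Rora, Ifng, Tbx21 and Eomes, and total RNA depth limits Tbx21 and Ifng.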
